A study of Mus musculus with 10 samples.

Results

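Aged-only regions are accessible stretches of chromatin that were listed in aged muscle stem cells after prostaglandin E2 (PGE2) and had no listed counterpart in young ones. They were chosen from the 2 deposited peak lists, one per age. Rows that touched or overlapped were merged within each list, and the summit with the highest significance, then the highest fold, was kept. A region was taken if that summit was at least 3-fold over the background of the authors' peak caller and no merged young region lay within 1 kb. Of 117284 aged regions, 81577 reached 3-fold, and 1276 of these (1.56%) met the rule. The young list held 131656 regions. In the reverse direction, 10500 of 95662 young regions of at least 3-fold (11.0%) had no aged region within 1 kb. These values chose the regions, so presence and fold are given as a description with no test.

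The cells came from C57BL/6 mice and were sorted by flow cytometry for α7-integrin and CD34. The young group was 8 to 20 weeks of age and the aged group 20 to 25 months. PGE2, dissolved in DMSO, was added at seeding in medium with serum and bFGF for 2 h, and the labels list 2 young and 3 aged libraries. Its dose is not given. Libraries with vehicle alone (0.1% DMSO, 2 young and 3 aged) were not analysed here. Effects of age that exist without PGE2 and effects on the response to PGE2 therefore cannot be told apart. Each list stands for its group with no value per library, so no value below carries a replicate error, and intervals over regions cover counting error alone. The number of reads behind each list is unknown. The labels give neither the sex of the mice nor whether mice were pooled.

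Muscle stem cells rest beside the muscle fibre until injury and then divide and fuse to rebuild it. ATAC-seq maps open chromatin with a transposase that cuts where DNA is free of nucleosomes, so a region marks a promoter, an enhancer or another exposed stretch. Promoters tend to be open in many cell types, while regions far from genes tend to differ more between cell states. PGE2 is a lipid signal of injured muscle that acts through receptors coupled to cAMP. A region open in a few cells and a region weakly open in many cells cannot be told apart in a bulk list.

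A small share of the aged-only regions overlapped a RefSeq promoter window (250 bases before to 50 after a start, GRCm38.p6). The windows used here cover 17492 of 21887 protein-coding genes (79.9%). Starts outside them were not used here, so the counts of starts are lower bounds. On the chromosomes with such windows, 16 of 1236 aged-only regions overlapped one, which is 1.29% (95% exact binomial interval 0.742 to 2.09). The share was 3.44% among aged regions of like fold with a young region within 1 kb. The part of the rule's bar on young regions within 1 kb in this difference was not tested. The 5 windows of coding genes and the strongest window of a noncoding gene that held the summit are shown because they place an aged-only region on a start site. Each runs 5′ to 3′ on the strand of the gene, with the bases within 10 of the summit in capitals. Coding genes are shown up to the base before the start.
Trim30a, distal start (chr7:104465194-104465443, minus strand): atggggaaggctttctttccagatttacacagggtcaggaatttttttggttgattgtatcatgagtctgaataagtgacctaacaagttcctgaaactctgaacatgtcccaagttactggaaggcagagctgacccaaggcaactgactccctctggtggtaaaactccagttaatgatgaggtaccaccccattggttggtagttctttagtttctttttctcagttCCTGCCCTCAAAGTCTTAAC
Trim30a, inner start (chr7:104446126-104446375, minus strand): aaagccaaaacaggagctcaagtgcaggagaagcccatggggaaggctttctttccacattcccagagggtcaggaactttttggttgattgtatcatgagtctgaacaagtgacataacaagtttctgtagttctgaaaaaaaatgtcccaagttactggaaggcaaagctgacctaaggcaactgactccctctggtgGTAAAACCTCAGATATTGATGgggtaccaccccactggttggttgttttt
Neu2 (chr1:87583772-87584021, plus strand): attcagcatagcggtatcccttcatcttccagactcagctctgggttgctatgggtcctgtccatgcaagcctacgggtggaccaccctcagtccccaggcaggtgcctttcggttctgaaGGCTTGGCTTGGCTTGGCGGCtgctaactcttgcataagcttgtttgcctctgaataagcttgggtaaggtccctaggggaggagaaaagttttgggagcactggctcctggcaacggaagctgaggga
Sp110 (chr1:85598811-85599060, minus strand): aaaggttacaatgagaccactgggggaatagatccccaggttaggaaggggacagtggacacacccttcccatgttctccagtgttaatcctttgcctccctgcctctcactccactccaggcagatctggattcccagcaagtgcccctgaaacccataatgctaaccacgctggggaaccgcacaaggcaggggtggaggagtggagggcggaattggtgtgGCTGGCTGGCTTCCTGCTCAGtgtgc
Cyp4f15 (chr17:32685409-32685658, plus strand): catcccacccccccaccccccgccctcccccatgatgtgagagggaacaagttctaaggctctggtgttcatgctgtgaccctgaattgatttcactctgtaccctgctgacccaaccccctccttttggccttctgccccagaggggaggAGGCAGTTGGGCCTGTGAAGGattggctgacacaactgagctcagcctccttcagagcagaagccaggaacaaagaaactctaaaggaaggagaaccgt
Wincr1 (chr4:89050057-89050336, plus strand): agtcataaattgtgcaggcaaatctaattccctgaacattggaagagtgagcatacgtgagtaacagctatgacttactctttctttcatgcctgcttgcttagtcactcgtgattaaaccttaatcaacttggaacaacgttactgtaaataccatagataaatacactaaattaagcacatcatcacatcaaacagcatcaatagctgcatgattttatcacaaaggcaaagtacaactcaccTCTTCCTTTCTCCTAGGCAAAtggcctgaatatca

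Among these windows, Trim30a was the only gene with an aged-only region on more than 1 start. It encodes an interferon-induced protein with a ubiquitin ligase fold, and both of its RefSeq starts with a window carried one. The inner region was 5.05-fold over background and 700 bp wide, with its summit 40 bases upstream of the start. The distal region was 3.70-fold and 391 bp wide, with its summit 10 bases upstream. The 2 windows of 300 bases were themselves alike, with 238 of 260 aligned bases identical and 80 bases in gaps. The nearest young region lay 91922 bp from the inner and 110977 bp from the distal region. How the authors placed reads that match more than 1 copy is not given in the sources used here, and the part of such reads in this result was not tested. Sp110, another interferon-induced gene, had a region of 3.41-fold only 172 bp wide. Neu2, which encodes a cytosolic sialidase, had one of 3.46-fold, and Cyp4f15, a cytochrome P450 gene, one of 3.32-fold. At Wincr1, a long noncoding RNA gene, the region was 3.84-fold and 824 bp wide with its summit 5 bases inside the gene. The highest fold at any of these windows was 5.77, at Kcnk1, which encodes a potassium channel; there the summit lay 281 bases downstream.

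Motif letters were searched on both strands of the 300-base windows, where TGANTCA, TGACGTCA and CAGCTG read the same on both strands. None of the 6 motifs contains another. AP-1 letters (TGANTCA) were found in 3 of the 16 windows and in 7.81% of all 32851 promoter windows. TEAD letters (GGAATG) were in 4 of 16 and in 14.7% of all. The myogenic E-box (CAGCTG) was in 1 of 16 and in 16.3% of all, and RUNX letters (TGTGGT) in 1 of 16 and in 16.8% of all. GC-box letters (GGGCGG), common in housekeeping promoters, were in 2 of 16 and in 35.7% of all. The cAMP response element (TGACGTCA) was in 0 of 16, which allows a share of up to 18.8%, and in 1.79% of all. The 16 windows had a median GC content of 44.3%, against 52.7% over all promoter windows. The 16 windows mix starts of coding and of long noncoding RNA genes, and the comparison with all windows was not matched for gene type. With 16 windows these counts are a description.

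Across 1276 regions, 2 overlapped a microRNA hairpin. The share over other aged regions is not given here, so this count is a description. The first overlapped most of the hairpin of Mir218-2, which lies inside the span of Slit3, a gene for a secreted guidance ligand. Its mature products are shown with the seed (bases 2 to 8) in capitals.
mmu-miR-218-5p: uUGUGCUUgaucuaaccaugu
mmu-miR-218-2-3p: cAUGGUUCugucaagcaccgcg
That region (chr11:35616434-35616920) was 3.27-fold over background and 487 bp wide, and the nearest young region lay 1640 bp away. The other overlapped part of the hairpin of Mir6353 inside the span of Pid1, at 3.46-fold, but did not reach the mature sequence. Expression of these RNAs was not measured here.

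The aged-only regions were weak and compact. Their median fold was 3.41, with quartiles of 3.17 and 3.94, and 691 of them lay below 3.5-fold. At 5-fold or more there were 80. Folds fell on whole steps, from which the count stacked at a summit could be recovered. That count is called fragments here. Whether the peak caller stacked fragments or read ends is not stated in the sources used here. The weakest aged-only regions had 62 fragments over a uniform background of 19.8, the median had 70 and the strongest 318. To be listed at all, a young region needed at least 39 fragments over a background of 21.7, or 1.76-fold. A site can therefore be absent from the young list and still hold signal under that floor. Exactly at the lower edge, 112 aged-only regions stood at 3.03-fold, such as that on chromosome 1 at 12337823 to 12337976. Just outside the rule, 93 aged regions without a young counterpart stood at 2.98-fold, 1 fragment lower, such as that on chromosome 1 at 11750420 to 11750634.

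The median width was 253 bp, with quartiles of 198 and 344.5 bp, and the range ran from 149 bp, the narrowest width in either list, to 1508 bp. Of the aged-only regions, 331 (25.9%, 23.6 to 28.4) were under 200 bp wide. Within the same class of folds they were narrower than aged regions with a young neighbour. Folds were not matched inside a class, and the part of fold in these gaps was not tested. Between 3 and 3.5-fold the medians were 233 and 259 bp, between 4 and 5-fold 297.5 and 362 bp, and between 5 and 7-fold 334 and 455 bp. A single deposited row made up 1086 of them (85.1%, 83.0 to 87.0), against 72.3% of shared regions of like fold. Between 3 and 3.5-fold the shares were 87.0% and 79.6%. Young-only regions were close to the aged-only ones in single rows (82.7%) and median width (257 bp). Fewer of them, 17.0% (16.3 to 17.7), were under 200 bp wide. Their median fold, over the background of their own list, was 3.74. Here like fold means 3.03 to 5.87, the range that held the central 95% of the aged-only regions. Only 4 regions joined 5 rows. The 3 widest all lay on chromosome 17, a pair beside Smok2a (1434 and 1127 bp) and another at 13547563, 168 kb from its nearest coding gene Tcte2 (1508 bp).

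**Figure D1:**
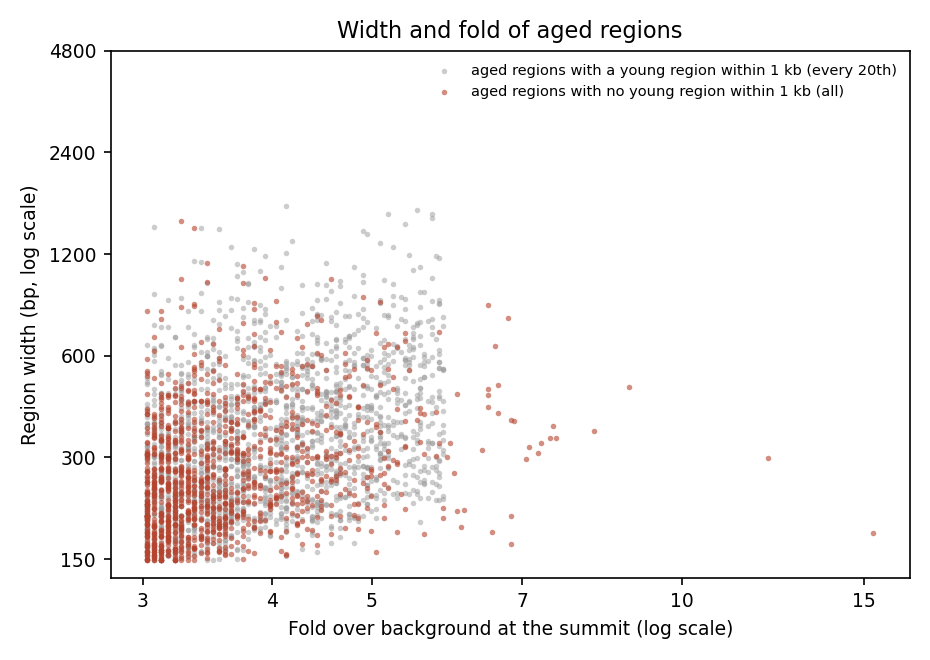
Fold over background (x axis, log scale) and width in bp (y axis, log scale) of the 1276 aged-only regions (red) and of every 20th aged region of 3.03 to 5.87-fold with a young region within 1 kb (grey). Most red points lie below 4-fold and 300 bp, and 2 stand alone above 10-fold.

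The share of aged regions that were aged-only fell steeply with fold. It was 6.53% (6.06 to 7.01) between 3 and 3.5-fold, 3.54% (3.15 to 3.96) between 3.5 and 4-fold and 1.98% (1.72 to 2.26) between 4 and 5-fold. From 5 to 7-fold it was 0.564% (69 of 12224 regions), from 7 to 10-fold 0.0894% (9 of 10066) and from 10 to 20-fold 0.0148% (2 of 13469).

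Of the 10 strongest regions, 8 were between 299 and 373 bp wide. The strongest of all, 15.3-fold with 318 fragments, was only 179 bp wide and lay on chromosome 16 at 98107441, 90.8 kb from the nearest coding gene and 24.5 kb from any young region. Next came a 299 bp region of 12.1-fold inside Anks1b, a synaptic scaffold gene, with a young region 2590 bp away. Another, weaker aged-only region of Anks1b lay within 1 kb of it. The region inside Ostn, the gene of the secreted muscle peptide osteocrin, was 8.89-fold with 184 fragments, and the nearest young region was 34.9 kb away. A region of 8.22-fold lay 15.3 kb from Slc25a28, a mitochondrial iron carrier gene. A region of 7.54-fold lay 174 kb from Angpt1 and another of 6.78-fold inside it. Angpt1 encodes a vessel-stabilising ligand that muscle stem cells can also secrete. The region nearest Gnai1, which encodes an inhibitory G protein subunit that lowers cAMP, was 7.50-fold and lay 99.2 kb from the gene. Inside Spock3, a proteoglycan gene, the summit reached 7.45-fold. The remaining regions of this set lay nearest Rab28 (7.30-fold, 649 kb away), Rgmb (7.26-fold, 504 kb away) and inside Gtdc1 (7.11-fold).

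Most aged-only regions had a young region in their wider neighbourhood. The median distance to the nearest one was 5.01 kb, with quartiles of 2.34 and 13.1 kb. A young region lay within 2 kb of 268 aged-only regions, within 10 kb of 875 (68.6%) and within 100 kb of 1227 (96.2%). Within 10 kb the median aged-only region had 2 other aged regions and 1 young region, while the median shared region of like fold had 2 and 4. The rule sets part of that contrast in young regions, since it asked for none within 1 kb. Another aged-only region lay within 1 kb of 96 of them. At the far end, 115 regions had no young region within 50 kb, and 2 of these lay on contigs with no young region at all. Of those with a measured distance, the farthest was a region on Y at 4150130 (1488 kb). Next came a pair on chromosome 4 at 122008211 and 122022736 (767 and 781 kb), 278 kb or more from the coding gene Gm10573.

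Distance to genes was not named in the rule, and the aged-only regions differed from other aged regions in it. The bar on young regions within 1 kb can act differently where young regions are dense or sparse. Its part in these distances was not tested. Gene positions could be read for 1269 of them. Their summits lay a median of 52.3 kb from the nearest end of a protein-coding gene, against 22.1 kb for shared regions of like fold. Within 1 kb of a gene end there were 21 (1.65%, 1.03 to 2.52), against 6.63% (6.37 to 6.90) of shared regions of like fold. The aged-only share there was 2.41% with any gap from a young region and 2.04% with a gap over 5 kb. More than 100 kb from any gene end there were 441 (34.8%, 32.1 to 37.4), against 17.2% (16.8 to 17.6). The summit lay inside a gene span for 609 (48.0%, 45.2 to 50.8), against 56.5% (56.0 to 57.0). The gap was similar among the weakest regions. Between 3 and 3.5-fold, 32.3% (28.8 to 35.9) of aged-only and 16.9% (16.1 to 17.6) of shared regions lay beyond 100 kb. Counting regions does not replace replicates, so these intervals do not stand for mice.

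Read the other way, the share of aged regions of like fold that were aged-only rose with each distance class. It was 0.909% (0.563 to 1.39) within 1 kb of a gene end, 2.16% (1.87 to 2.47) from 1 to 10 kb and 3.29% (3.03 to 3.56) from 10 to 100 kb. Beyond 100 kb it was 6.78% (6.18 to 7.43). In the young list the order depended on the folds taken. Of its regions in the central 95% of the folds of young-only regions, 21.7% (20.1 to 23.4) within 1 kb of a gene end had no aged region within 1 kb, and 18.5% (17.6 to 19.3) beyond 100 kb. Over all young regions of at least 3-fold the share was instead lowest at gene ends, at 4.01% (3.69 to 4.35), then 12.4% in both middle classes and 10.8% beyond 100 kb. Over all aged regions of at least 3-fold it kept its order, at 0.162%, 1.06%, 1.64% and 3.51%. The difference between the lists was not tested.

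**Figure D2:**
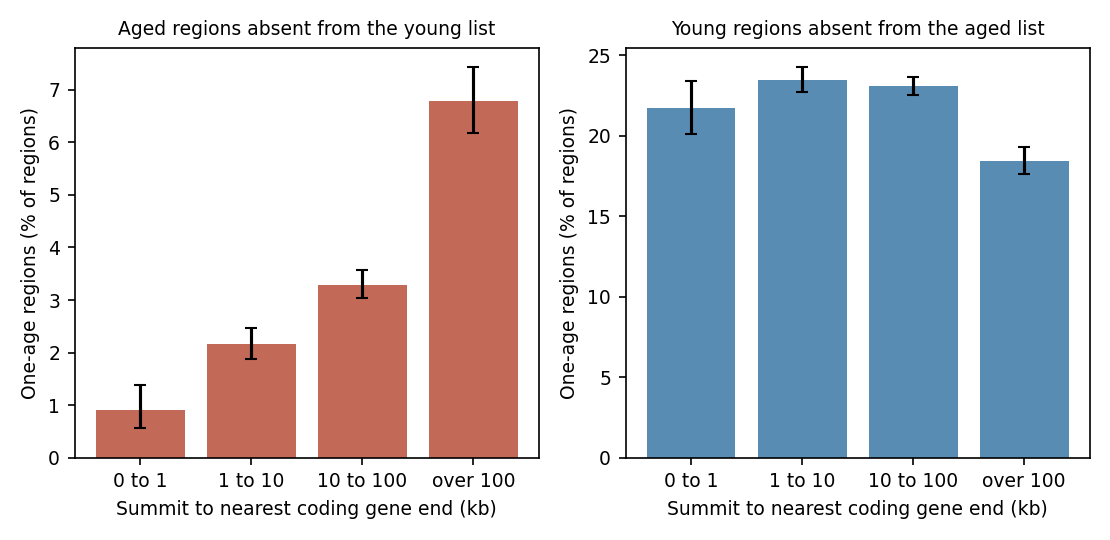
Share of regions without a counterpart within 1 kb in the other list (y axis, %) by distance from the summit to the nearest protein-coding gene end (x axis, kb), for aged regions (left) and young regions (right) in the central 95% of the folds of the respective one-age regions. Bars start at 0 and error bars are 95% exact binomial intervals; the aged share climbs from 0.909% to 6.78%, while the young share lies between 18.5% and 23.5%. The y axes differ.

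Along the genome the aged-only regions were spread over every assembled chromosome. On the 19 autosomes they made up between 0.769% and 2.07% of aged regions of at least 3-fold, with a median of 1.53% and an SD over chromosomes of 0.353 percentage points. The lowest share was on chromosome 11 (37 of 4812) and the highest autosomal share on chromosome 1 (124 of 5986). On X the share was 2.72% (51 of 1874, 2.03 to 3.56), above that of each autosome, though its interval overlapped those of chromosomes 1, 2, 8, 12, 13, 14 and 16. Young-only regions made up 12.8% of young regions of at least 3-fold on X and 11.0% overall.

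**Figure D3:**
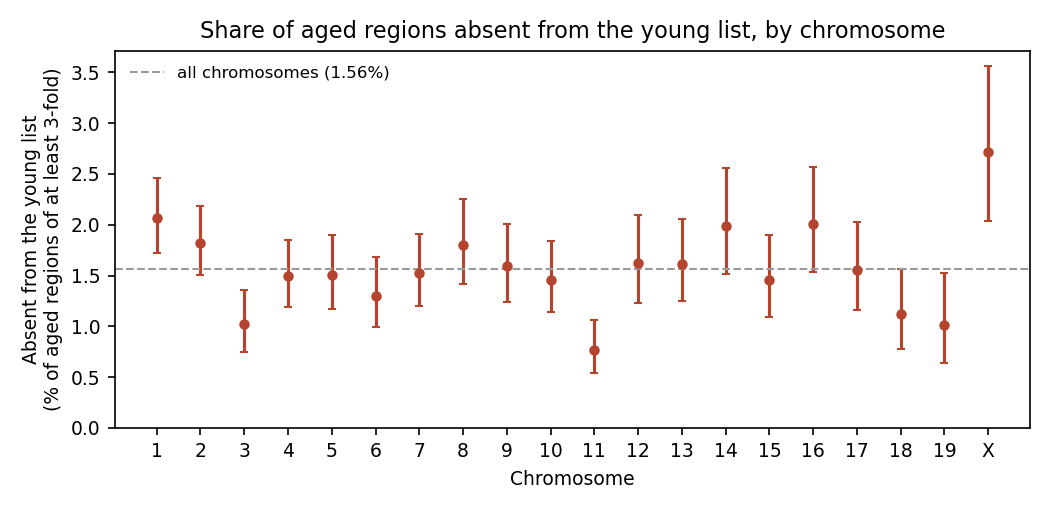
Aged-only regions as a percentage of aged regions of at least 3-fold (y axis) on chromosomes 1 to 19 and X (x axis), with 95% exact binomial intervals. The dashed line marks 1.56%, the share over all chromosomes; chromosome 11 is lowest at 0.769% and X highest at 2.72%.

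The 21 regions at gene ends touched 19 genes and were weak, from 3.03-fold to 4.85-fold. Start windows were used for 9 of these genes, and 3 summits lay within 1 kb of such a start, at Trim30a, Cyp4f15 and Kng2, a kininogen gene (3.03-fold). The strongest was 110 bp from an end of Sds, which encodes serine dehydratase, at 4.85-fold. A region of 4.61-fold lay 24 bp from an end of Ifi204, an interferon-inducible gene of the p200 family, with no young region for 310 kb. Others lay at ends of Serpina3m, a serine protease inhibitor gene (3.27-fold), Bdkrb2, which encodes a bradykinin receptor (3.12-fold), and Adgrd1, an adhesion receptor gene (3.27-fold). Further ones lay at Ints10, an Integrator subunit gene (3.56-fold), Calhm5, an ion channel family gene (3.46-fold), and Adam2, a sperm surface protein gene (3.36-fold). Stau2, an RNA-binding protein gene (3.17-fold), and Fam98a (3.22-fold) followed. The rest were at Sfi1 (3.75-fold), Smok2a (3 regions of 3.27 to 3.36-fold), Smok2b (3.75-fold), Magea10 on X (3.12-fold), 1700088E04Rik (3.80-fold) and LOC100504180 (3.22-fold).

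Many aged-only regions lay near one another. Chained where less than 100 kb apart, 555 of them formed 214 groups, 63 of which held 3 or more, and 721 stood alone. The group with the most members, 13, covered 200 kb of chromosome 17 (13125308 to 13325058) around Smok2a and Smok2b, sperm motility kinase genes. That stretch held 39 aged regions and 7 young ones. The aged-only folds there ran from 3.03 to 5.86, and 5 of the 13 were over 1000 bp wide. A group of 5 further along chromosome 17 (13546854 to 13550854), nearest Tcte2, had 5 aged regions and 0 young ones in its span. The group of 10 at Sfi1, which encodes a centrin-binding protein, covered 81.4 kb of chromosome 11 (3100161 to 3181571). Its regions were narrow, with a median width of 200 bp, and reached 6.82-fold among 30 aged and 10 young regions. A group of 5 lay by Prl2c2 and Prl2c3, sister genes of the prolactin family, where 52 aged and 19 young regions were listed and none of the young ones passed 2.86-fold. Smok2a and Smok2b, like Prl2c2 and Prl2c3, are close copies of each other. Reads from such copies may be shared between them, and their part in these groups was not tested. The part of reads that match more than 1 place was not tested for the Sfi1 group either.

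Other groups lay inside single long genes. Tshz2, a zinc finger transcription factor gene, held 7 aged-only regions over 107 kb of chromosome 2 (169820959 to 169928213), all between 4.23 and 6.05-fold, among 11 aged and 4 young regions. Sv2b, a synaptic vesicle protein gene, held 6 over 62.2 kb of chromosome 7 (75152027 to 75214187), where 7 aged regions faced 1 young region. Their folds were 3.12, 4.71, 5.62, 3.75, 3.84 and 3.51 from left to right. Atxn1, a chromatin-associated repressor gene, and Lpp, an adhesion-site LIM protein gene, held groups of 6 each. In Lpp they lay among 33 aged and 27 young regions, so the aged-only sites there sat between shared ones. Sulf1, a heparan sulfatase gene, Klhl29, Maml2, a Notch coactivator gene, and Dlg2, a synaptic scaffold gene, held groups of 5 each. By nearest gene end within 100 kb, 828 regions were assigned to 647 genes, of which 36 had 3 or more. The most were at Sfi1 (9 of its 17 aged regions of at least 3-fold), Smok2a (7 of 11), Sv2b (6 of 35), Angpt1 (5 of 19) and Atxn1 (5 of 25). None of these 5 genes had a young-only region of at least 3-fold assigned to it. That was also so for most of the 36 genes with 3 or more, so it does not set these 5 apart. Over all protein-coding genes, 8977 of 81486 assigned young regions of at least 3-fold (11.0%) were young-only.

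**Figure D4:**
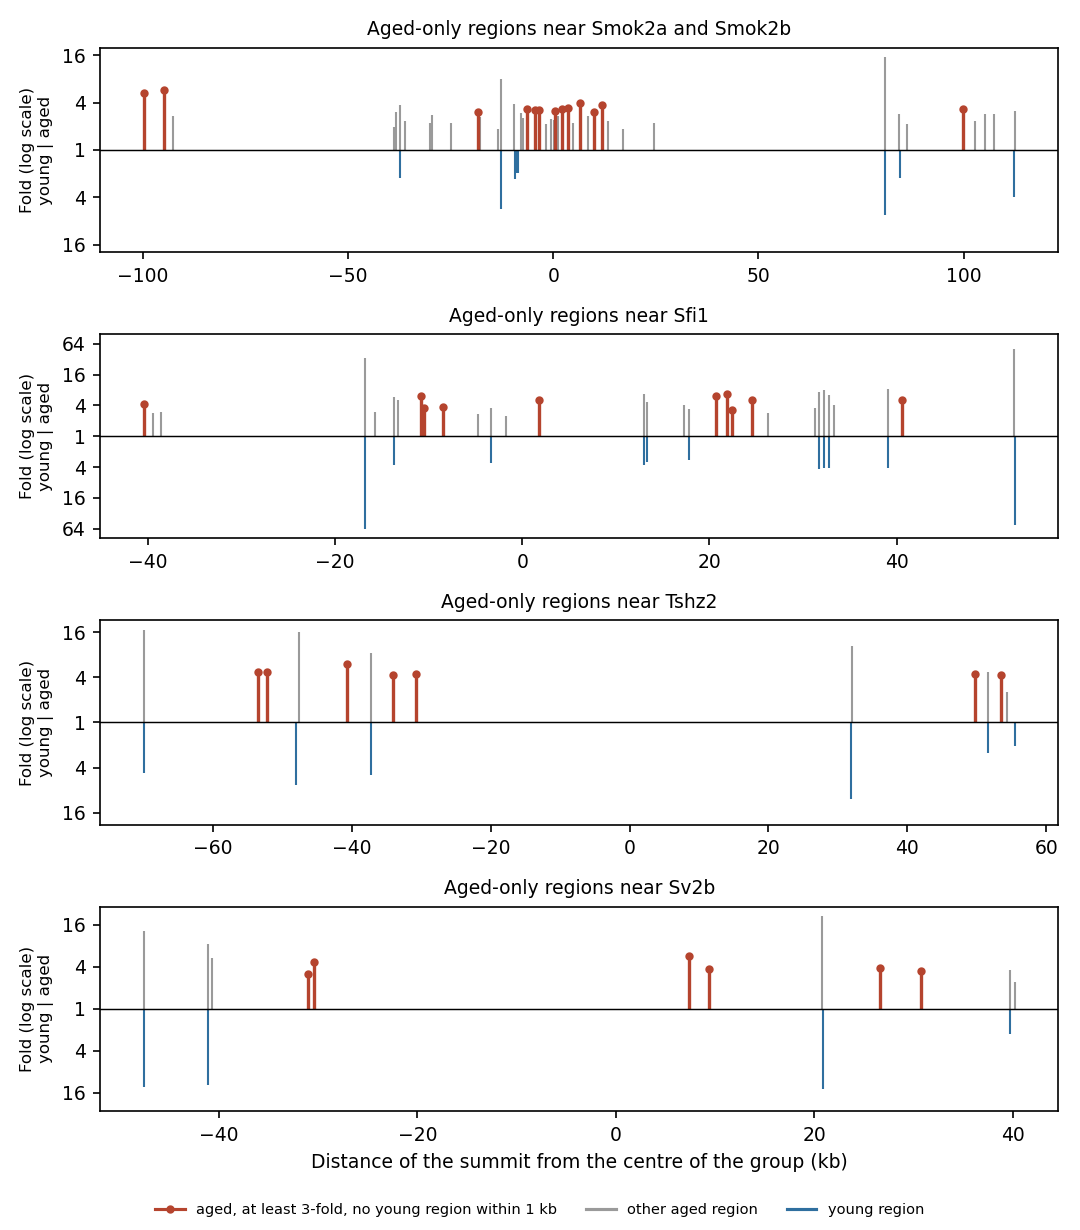
Listed regions around 4 groups of aged-only regions, by distance of the summit from the centre of the group in kb (x axis). Aged folds point up and young folds down on a log scale, red marks aged-only regions, grey other aged regions and blue young regions; folds are relative to the background of their own list and are not compared across the line. Near Smok2a and Smok2b and near Sv2b red lines stand in stretches with few blue ones.

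Some long stretches held several aged regions and no young region at all. With at least 5 aged regions over at least 50 kb free of young ones, 55 such stretches were found, with 430 aged regions of any fold, 101 of them aged-only of at least 3-fold. The reverse, free of aged regions, was found 290 times, with 1805 young regions. A stretch of 885 kb that overlapped Csmd1, a very long gene for a complement-control membrane protein, held 16 aged regions on chromosome 8 (16642094 to 17527501), 9 of them aged-only, up to 5.09-fold. Spock3 lay in a stretch of 924 kb with 10 aged regions, 5 of them aged-only. A stretch of 239 kb on chromosome 5 that overlapped Hgf, which encodes the ligand of the receptor Met, held 8 aged regions, 4 of them aged-only. Stretches that overlapped Gnai1 and Ksr2, a Ras pathway scaffold gene, held 7 aged regions with 4 aged-only each. Tandem gene families made up others. The zinc finger genes Zfp985, Zfp979, Zfp534 and Zfp984 on chromosome 4 lay in a stretch of 289 kb with 23 aged regions, of median 2.45-fold, 3 of them aged-only. The Trim30 genes and adjoining olfactory receptor genes shared a stretch of 1045 kb with 5 aged regions. The major urinary protein genes spanned 2279 kb with 11 aged regions, 1 of them aged-only.

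The lists of genes with known roles in muscle stem cells had shares of aged-only regions whose intervals held the share over all genes. Over all protein-coding genes, 828 of 68948 assigned aged regions of at least 3-fold (1.20%, 1.12 to 1.29) were aged-only. The quiescence and identity list of 32 genes had 3 of 515 (0.583%, 0.120 to 1.69). They lay 7548 bp from Spry1, an inhibitor of growth factor signalling that keeps stem cells dormant (4.42-fold), 27.1 kb from Foxo1 (3.41-fold) and 27.5 kb from Rbpj, the nuclear effector of Notch (3.36-fold). The commitment and fusion list of 27 genes had 5 of 194 (2.58%, 0.842 to 5.91), of which 4 belonged to Eya2, a transcriptional coactivator of the early myogenic programme. The Eya2 regions stood at 3.22, 3.60, 4.18 and 3.17-fold along 168 kb, among 22 aged and 16 young regions. The remaining one lay near Des, the gene of the filament protein desmin (3.03-fold). The mature fibre list had 2 of 75 (2.67%, 0.325 to 9.30), inside Myh2, a fast myosin gene (3.41-fold), and near Mb, the myoglobin gene (3.12-fold).

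In the PGE2 and cAMP list of 50 genes, 5 of 448 regions (1.12%, 0.363 to 2.59) were aged-only, close to the share over all genes. The strongest lay inside Rapgef4, which encodes a cAMP-activated exchange factor, at 5.14-fold with 106 fragments, and a young region lay 1320 bp away. Hpgd, the gene of the enzyme that breaks down PGE2, had 3, at 3.22, 3.22 and 3.46-fold and 19964 to 71853 bp from its ends. One region inside Pde4d, which encodes a cAMP phosphodiesterase, stood at 3.41-fold. No receptor of PGE2 and no adenylyl cyclase gene of the list had one. Their aged regions were not counted apart from the list, so this absence has no share beside it and is not read as a result. Among 26 immediate early and AP-1 genes, Jun had 1 of the list's 211 regions, 89.2 kb from the gene at 3.46-fold.

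The inflammation list of 40 genes had 0 of 368, which allows a share of up to 0.815%. Senescence and p53 genes had 0 of 162 (up to 1.85%), cell cycle genes 0 of 133 (up to 2.26%) and ubiquitous genes 0 of 77 (up to 3.90%). The Notch, Wnt and TGF-β list had 7 of 598 (1.17%), with 2 nearest Fzd4, a Wnt receptor gene (4.57 and 3.60-fold), and 1 nearest Bmp4, a ligand gene (3.65-fold). The matrix and adhesion list had 9 of 548 (1.64%), led by a pair at Col25a1, a membrane collagen gene (3.56 and 3.51-fold), and 1 in Hspg2, the perlecan gene (3.46-fold). The list with the highest share was neuronal and synaptic adhesion genes, with 10 of 183 (5.46%, 2.65 to 9.82) over 9 of its 53 genes. Besides Anks1b they included Dlg2 (7.06-fold), Ptprd (4.47-fold) and Cadm2 (4.28-fold). The same list also had the highest young-only share of the lists, 18.8% against 11.0% over all genes. It holds many very long genes and was written with earlier results of these data known.

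**Figure D5:**
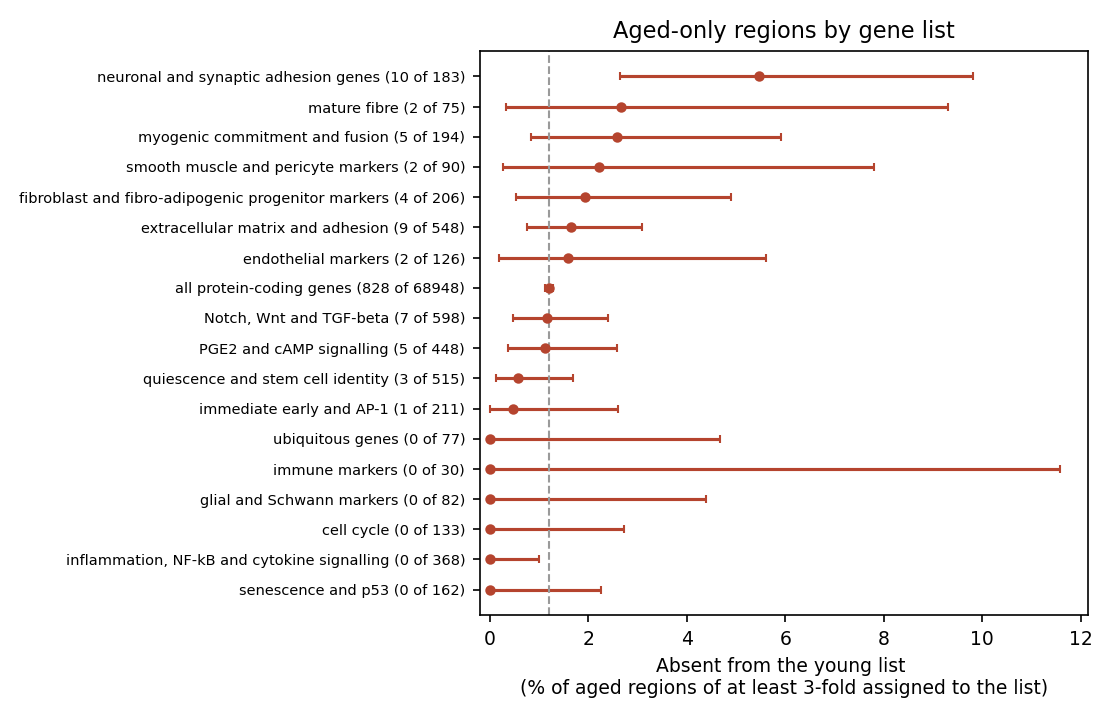
Aged-only regions as a percentage of the aged regions of at least 3-fold assigned to each gene list (x axis), with 95% exact binomial intervals; counts stand beside each name and the dashed line marks 1.20%, the share over all protein-coding genes. Of the 17 lists, only neuronal and synaptic adhesion genes have an interval wholly above the line and only inflammation genes one wholly below it.

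The labelled cell type had its markers in both lists. Pax7, Myf5, Calcr, Cdh15 and Itga7 each had a region within 1 kb of a gene end at both ages, from 16.6-fold to 61.7-fold in the aged list, and none had an aged-only region. Among 5 endothelial markers, Kdr alone had such a region in aged cells (2.69-fold), while Kdr and Cdh5 had one in young cells. Among immune markers, Cd68 and Spi1 had one in both lists and Ptprc, Adgre1, Csf1r and Cd3e in neither. Of 5 fibroblast markers, 4 had one in aged cells, up to 6.01-fold, and 3 in young cells. All 4 smooth muscle and pericyte markers had one in both lists. The glial marker Sox10 had one at the young age alone. An aged-only region of 3.46-fold lay inside Dcn, the decorin gene of fibroblasts. The wider fibroblast list as written had 4 of 206 regions (1.94%), nearest Tcf4 on chromosome 18, Mfap5, Dcn and Tcf21. The region nearest Tcf4 is counted there but is not read here as one at a fibroblast gene. Whether each gene of that list marks fibroblasts was not tested. The endothelial list had 2 of 126, both by Emcn. The immune list had 0 of 30, which allows up to 10%. The part of other cell types in the aged-only regions was not tested.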

How the data were processed

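The submitters' processing notes name Bowtie2 and the build mm10 (GRCm38). The deposited files are 2 narrowPeak lists with 215838 aged and 265507 young rows, which hold for each summit a fold ratio over background, a −log10 p and −log10 q, and a score. For the peak caller's options, read filters and pooled libraries, the sources used here state nothing. In each list every deposited fold lay within 0.01 steps of a whole number of equal steps, taken as fragments plus 1 over background plus 1. A Poisson tail at these values matched the deposited −log10 p of the aged list, where under 100, within a relative difference of 9.85e-07. Rows were merged in Python 3.11.15 with pandas 2.3.3, and distances are between region edges. The merging was tested on simulated data. Genes are protein-coding spans of a RefSeq table of GRCm38.p6 (21887 genes), with no exons or introns used. A region was assigned to the gene with the nearest end within 100 kb of its summit. Shares of regions carry exact Clopper-Pearson intervals (95%), and a count of 0 allows up to 3 counts. Intervals and that limit cover counting error only, since fragments were amplified by PCR and the labels name no molecular identifiers. No test between ages was possible. The regions and gene lists were chosen with earlier results of these data known. Named regions were the 10 strongest, the 3 widest and 3 farthest from young regions, all at gene ends, up to 3 per list, the 5 genes with most regions (ties by symbol) and the groups with most regions. The windows with printed sequence, the stretches free of the other list and other regions were chosen after their values were seen. Promoter windows of chromosome 18, which held 33 aged-only regions, were not used here. Values of some single genes are not reported here. A genome sequence was not used here, so sequence is shown only for RefSeq promoters and microRNAs.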

Additional observations from a re-analysis of the deposited data

How the results depend on the processing

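The number of aged-only regions followed the thresholds. It was 1961 with any gap from a young region, 641 with a gap over 5 kb, 2876 at 2.5-fold, 290 at 4-fold and 80 at 5-fold. It stayed within 1.5 times of 1276 under the other 6 planned settings and at widths of at least 200 bp, between 945 and 1562. The share at gene ends was 0.694% at 4-fold, 0% at 5-fold (0 of 80, which allows up to 3.75%) and 5.75% with windows of 2.5 kb. The share inside gene spans was 58.75% at 5-fold. The share made of a single row was 88.1% at 2.5-fold, 81.4% at 4-fold, 81.25% at 5-fold and 79.9% at widths of at least 200 bp, a setting chosen after seeing the data. That width left 142 groups of neighbours in place of 214. Leaving out a library could not be tried, and no paired analysis was possible because each age has 1 list with no value per library. The unknown depth limits every absence, since a weak site can fall under the young list's floor.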

Other observations

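The aged-only regions included 3 on chromosome Y and 7 on 4 unplaced or unlocalised contigs, where gene positions were not used. Of the latter, 2 lay on contigs with no young region at all. The regions of the Wincr1 group on chromosome 4 (88928427 to 89057521) numbered 4, among 9 aged and 3 young regions. At Kcnk1 on chromosome 8 (125965745 to 126081549) 4 aged-only regions lay among 7 aged and 3 young ones. Piezo2, which encodes a mechanically gated channel, had 3 of 17 aged regions of at least 3-fold as aged-only, beside 1 young-only region. Epb41l3, a membrane skeleton gene, had 4 of 23 beside 3 young-only ones.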
